A study of Mus musculus with 15 samples.

Results

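The genes described here encode the respiratory chain and ATP synthase of mitochondria, with the factors that build them. They were measured by RNA-seq in tumor-associated macrophages (TAMs) sorted by FACS from orthotopic liver tumors of C57BL/6 mice. Members were the genes whose symbols begin with the names of complex I (Nduf), complex II (Sdh), complex III (Uqcr), complex IV (Cox) and ATP synthase (Atp5) genes, or of the protein-coding genes of mitochondrial DNA (mtDNA), without symbols marked as pseudogenes. This rule gave 119 of the 55335 genes in the table, of which 82 are nuclear subunits, 13 are mtDNA-encoded subunits and 24 are assembly or other factors. The tumors were grown from Hepa1-6 cells, a mouse hepatoma line, in 3 groups of 5 samples: unaltered by a miRNA (control), with miR-144 overexpressed, or with miR-451a overexpressed in the hepatoma cells. The miRNA was changed in the tumor cells and not in the macrophages, and per the study's methods the Hepa1-6 cells of its orthotopic model also carried firefly luciferase from a lentivirus. Per the study's methods, TAMs were sorted with antibodies to CD11b and F4/80. The study gives a lower n for its TAM RNA-seq than the number of labelled samples. The age of the mice and whether each sample is a separate mouse are not given in the sources used here, so p-values measure only the spread between these samples. The comparison asks how the RNA of macrophages in tumors with either miRNA differs from that of macrophages in control tumors.

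The respiratory chain passes electrons from NADH (complex I) and succinate (complex II) through ubiquinone, complex III and cytochrome c to oxygen at complex IV, and pumps protons on the way. ATP synthase, or complex V, uses the proton gradient to make ATP. Complexes I, III, IV and V mix subunits encoded by mtDNA with a larger number encoded in the nucleus, whereas complex II is wholly nuclear. In macrophages, oxidative phosphorylation is known to be prominent in alternatively activated cells and to be reduced after inflammatory activation.

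FPKM (fragments per kilobase of transcript, scaled to the mapped total of the library) was analysed as log2(FPKM + 1), and on this scale the fold change of a gene at about 1 FPKM or less comes out too small. The depth implied by the steps between low values was 15.6 to 30.7 M fragments (M for mega) per sample and is approximate. The macrophage genes Csf1r and Adgre1, the latter encoding the F4/80 of the sort, averaged 401 and 137 FPKM in control TAMs. Of 12 macrophage markers, 10 were higher and 1 lower in each miRNA group. Among all genes 47.1% and 48.1% were higher with miR-144 and miR-451a, and 20.1% and 20.3% were lower. The summed FPKM of the 12 markers was 10692 to 11662 in control samples, 19159 to 20771 with miR-144 and 19068 to 19996 with miR-451a. Of 8 hepatocyte markers, 7, Alb among them, were at 0 in all 15 samples. The summed FPKM of 6 stellate cell and fibroblast markers was 106 to 131 in control samples, 141 to 209 with miR-144 and 180 to 231 with miR-451a, with Lrat at 0 throughout. That of 7 neutrophil markers was 64.9 to 79.2, 46.4 to 52.3 and 44.2 to 53.3, almost all of it Csf3r, and the T cell sum was 1.25 to 1.63, 5.60 to 8.88 and 5.32 to 9.51, nearly all of it Cd4, with Cd3e at 0. The part of these cell types in the results was not tested, and in such bulk samples fewer cells of a type and less RNA per cell cannot be told apart.

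Most respiratory chain and ATP synthase subunits were lower in TAMs of both miRNA groups. Of the 112 members with a mean of at least 1 FPKM, 66 were lower and 7 higher with miR-144, and 67 were lower and 9 higher with miR-451a (limma on the 3 groups, Benjamini-Hochberg adjusted p under 0.05 over 11419 genes). Among all genes tested the direction was the opposite, with 20.1% lower and 47.1% higher with miR-144, and 20.3% lower and 48.1% higher with miR-451a. In either direction, 67.2% and 68.3% of all genes were called. Every miR-144 sample lay below every control sample for 42 members (16.0% of all genes) and above for 4 (37.9% of all genes, and 53.9% in either direction). For miR-451a these counts were 48 below (16.4% of all genes) and 5 above (38.8%, and 55.2% in either direction). Both comparisons share the control samples, and 59 members were lower and 7 higher in both. The other 7 members were under the filter, and Cox7b2 and Cox8c, both expressed in testis, were at 0 in every sample.

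The 76 nuclear subunits tested had median log2 fold changes of -0.26 for miR-144 and -0.28 for miR-451a against control. That of the 13 mtDNA-encoded subunits was -0.40 and -0.42, and that of the 23 assembly and other factors tested was 0.03 and 0.00. Under quantile normalization the order turned, with medians of -0.31 and -0.33 for nuclear and -0.09 and -0.14 for mtDNA-encoded subunits. The median of all genes was 0.13 and 0.14, so relative to the typical gene the subunits lay further down than these values show. With each sample centred on its own median gene, 84 members were lower and 3 higher with miR-144, and 91 were lower and 4 higher with miR-451a, where 30.7% and 31.8% of all genes were lower. Of the 76 nuclear subunits, 50 and 52 were lower as first fitted, 65 and 69 under median centring, 58 and 59 under quantile normalization and 41 in each comparison after rescaling to TPM, where 16.4% and 16.3% of all genes were lower.

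**Figure D1:**
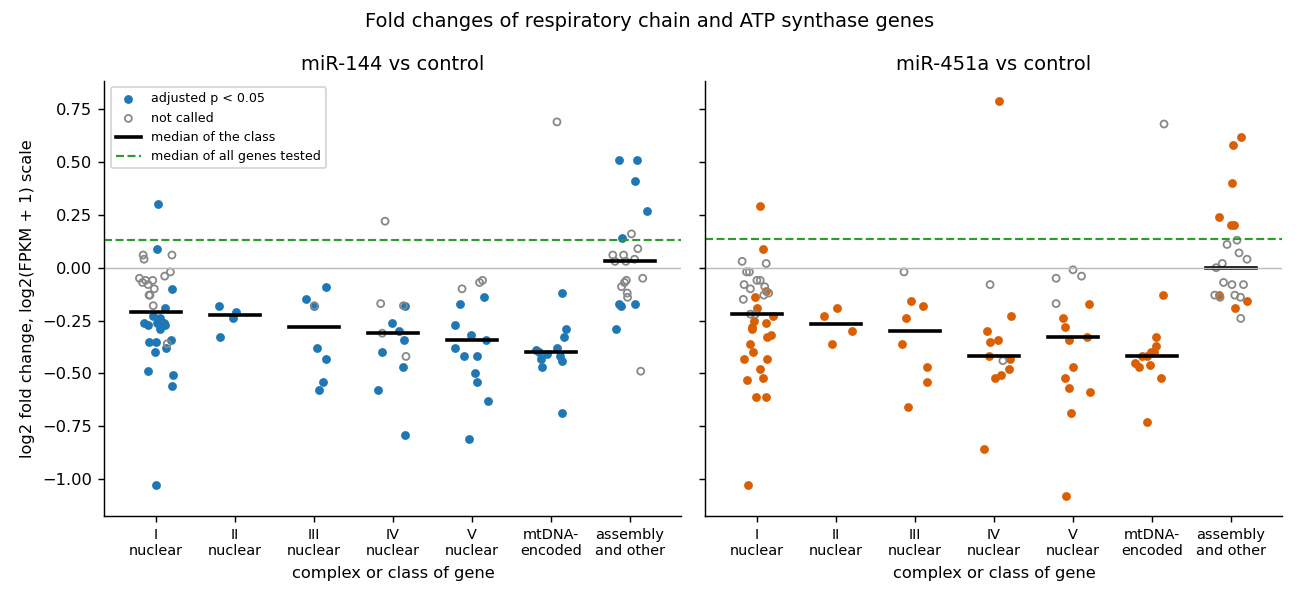
Log2 fold change on the log2(FPKM + 1) scale (vertical axis) of each member with a mean of at least 1 FPKM, by complex and class of gene, for miR-144 against control (left) and miR-451a against control (right). Filled points have an adjusted p under 0.05 in limma, open points do not, black bars are class medians and the dashed line is the median of all genes tested, 0.13 and 0.14. The medians of the nuclear subunits of all 5 complexes and of the mtDNA-encoded subunits lie below 0, and that of assembly and other factors lies at 0.03 and 0.00.

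The 13 proteins encoded by mtDNA are the core of the proton pumps. They are transcribed from both strands of a circular genome in long precursors that are cut at the tRNAs. In each comparison 12 of the 13 were lower (20.1% and 20.3% of all genes), the exception being mt-Atp6. Under quantile normalization 7 were lower and 1 higher in each, with medians of -0.09 and -0.14, and mt-Nd1, mt-Cytb, mt-Co2 and mt-Co3 lost their calls, whereas 12 were lower under median centring and 11 after rescaling to TPM. With miR-144, 10 of the 13 lay below every control sample (16.0% of all genes), and with miR-451a 11 did (16.4%). All 7 complex I subunits of mtDNA fell, by a median of 0.42 with miR-144 and 0.45 with miR-451a on the log2 scale.

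mt-Nd3, a complex I subunit of the membrane arm, fell the most of the 13. Its FPKM was 161, 187, 154, 239 and 175 in the 5 control samples, 132, 95.8, 122, 120 and 94.1 with miR-144, and 93.1, 105, 123, 139 and 89.5 with miR-451a. Control samples lay above all others, and the log2 fold changes were -0.69 and -0.73 (SE 0.14 for both, limma adjusted p = 0.000548 and 0.000308). mt-Cytb, the catalytic subunit of complex III made from mtDNA, had 1849 ± 100 FPKM in control samples, against 1337 ± 103 with miR-144 and 1292 ± 129 with miR-451a (mean and SD, n = 5). Its log2 fold changes were -0.47 and -0.52 (SE 0.07 for both, limma adjusted p = 2.25e-05 and 7.28e-06), or -0.09 and -0.14 and not called under quantile normalization.

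mt-Co1, the catalytic subunit of complex IV, was the most abundant member. Its FPKM was 5504, 5757, 5622, 5959 and 5627 in control samples, 5287, 5154, 5393, 5299 and 5033 with miR-144, and 5251, 5210, 5232, 5329 and 4993 with miR-451a. Every miRNA sample lay below every control sample, but the differences were small, -0.12 and -0.13 on the log2 scale (SE 0.03 for both, limma adjusted p = 0.00532 and 0.00329), and they were 0.30 and 0.32 under quantile normalization and lost their call after rescaling to TPM or without the filter on low values. mt-Co2 and mt-Co3, its partners in the core of complex IV, had log2 fold changes of -0.33 and -0.38 with miR-144 and -0.37 and -0.42 with miR-451a, against -0.04 and -0.03, and -0.08 and -0.06, without a call under quantile normalization. The ratio of mt-Nd1 to mt-Co1 FPKM, chosen after the values were seen, was 0.283 to 0.306 in control samples, 0.229 to 0.242 with miR-144 and 0.223 to 0.246 with miR-451a, without overlap of control and miRNA samples, although both genes lie on the same strand. mt-Nd6, the only subunit encoded on the other strand, fell by 0.41 and 0.40 on the log2 scale (limma adjusted p = 0.00118 and 0.00123).

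Some mtDNA-encoded subunits share sequence with nuclear copies of mtDNA. Of the 13 subunits, 7 share over 50% of their 50-base stretches with annotated nuclear copies in GENCODE M21, and 4 (mt-Nd1, mt-Nd6, mt-Cytb and mt-Atp8) share none. These 4 had log2 fold changes of -0.42, -0.41, -0.47 and -0.29 with miR-144, of which mt-Nd1 and mt-Cytb were not called under quantile normalization, and the part of shared reads in the values was not tested. Some copies were listed at an FPKM near that of the gene, such as 2002 on average for Gm28661 and 1993 for mt-Co2 in control samples, others well below it, such as 2254 for Gm29216 against 5694 for mt-Co1, and others at or near 0, such as 1.26 for Gm13339 against 1047 for mt-Nd2. With each gene summed with its copies, an alternative added after the values were seen, 73 and 76 members were called, the same counts as without the sum. Where a copy is near the FPKM of its gene in every sample, the sum can hardly alter the fold change. The equal counts therefore do not test the part of shared reads.

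mt-Atp6, the a subunit of the proton channel of ATP synthase, split the control group. Its FPKM was 1858, 420, 2031, 449 and 1983 in control samples 1 to 5, against 1649 to 1825 with miR-144 and 1605 to 1818 with miR-451a. Control samples 2 and 4 thus stood far below all other samples, whereas the 3 other control samples stood above every miRNA sample. The log2 fold changes of 0.69 and 0.68 (SE 0.40 for both, limma adjusted p = 0.139 and 0.140) were not called, and without control samples 2 and 4, which were left out after the values were seen, they were -0.18 in both comparisons. The nuclear copy Gm10925, which matches 99.5% of the 50-base stretches of mt-Atp6, showed no such dip, with 2052, 2213, 2195, 2352 and 2170 FPKM in the control samples.

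mt-Atp8, which encodes the A6L subunit, overlaps mt-Atp6 by 43 bases in the same transcript, and mt-Nd4l overlaps mt-Nd4 by 7 bases, so a fragment can belong to both genes of a pair. The stretches where the second reading frame begins are shown from the GRCm38 mitochondrial genome. For mt-Atp8 and mt-Atp6 (chrM:7927-7956, plus strand) the capitals mark the start codon of mt-Atp6, with the overlap running beyond the stretch, and for mt-Nd4l and mt-Nd4 (chrM:10156-10185, plus strand) they mark the shared bases.
mt-Atp8 and mt-Atp6: ATGaacgaaaatctatttgcctcattcatt
mt-Nd4l and mt-Nd4: aacctactacaATGCTAAaaattattcttc
mt-Atp8 did not share the dip of its neighbor. Its FPKM was 2282, 2632, 2419, 2962 and 2524 in control samples, and samples 2 and 4 were the highest of the group. It fell with log2 fold changes of -0.29 and -0.33 (SE 0.08 for both, limma adjusted p = 0.00512 and 0.00175), although the groups overlapped. mt-Nd4l and mt-Nd4 moved alike, by -0.44 and -0.39 with miR-144 and by -0.47 and -0.40 with miR-451a.

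**Figure D2:**
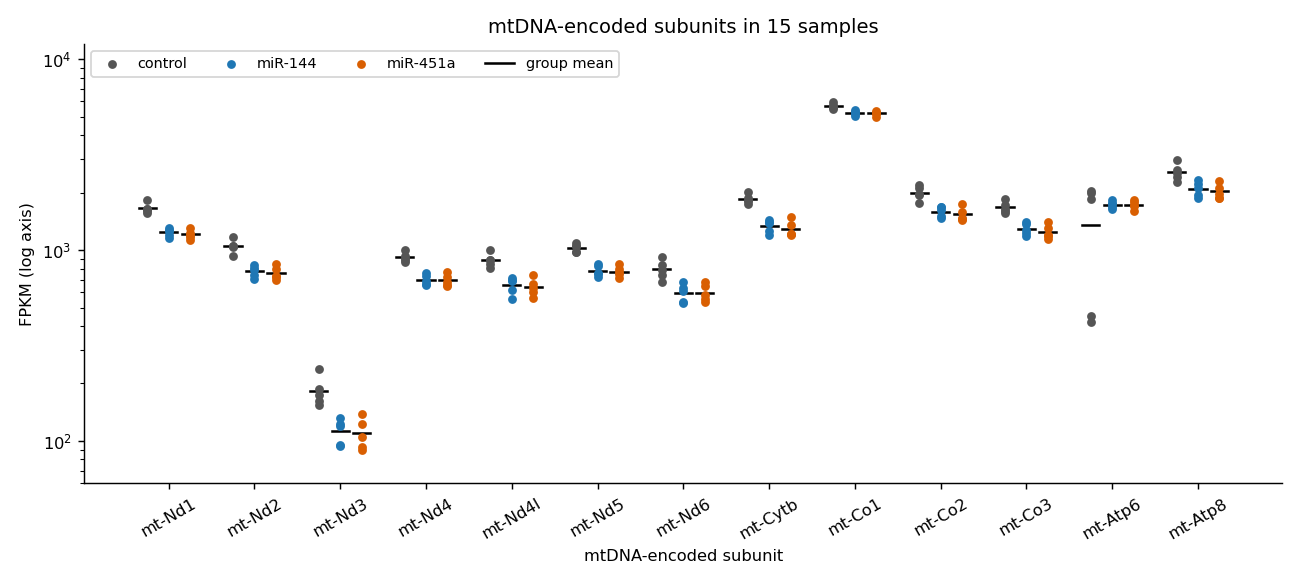
FPKM (vertical axis, log scale) of the 13 mtDNA-encoded subunits in each sample, with 5 points a group and black bars at the group means. All subunits but mt-Atp6 are lower in the miRNA groups, and 2 control samples of mt-Atp6, at 420 and 449 FPKM, lie apart from the rest.

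Complex I is the largest complex, and its 36 nuclear subunits were mainly lower or not called. With miR-144, 19 were lower, 2 higher and 15 not called, and with miR-451a 20 were lower, 2 higher and 14 not called. Among all genes 20.1% and 20.3% were lower and 47.1% and 48.1% higher. Ndufa1 (ENSMUSG00000016427, chromosome X, 37187588 to 37191163, minus strand, GRCm38), a small membrane subunit needed for assembly, fell the most. Its FPKM was 89.8, 101, 91.6, 116 and 87.6 in control samples, 61.0, 43.4, 44.2, 48.9 and 39.0 with miR-144, and 35.8, 47.0, 46.2, 62.2 and 46.0 with miR-451a. Control samples lay above all others, and the log2 fold change was -1.03 in both comparisons (SE 0.13, limma adjusted p = 7.07e-06 and 6.60e-06).

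Ndufa2, an accessory subunit and after Ndufa1 the most abundant nuclear subunit of complex I, averaged 60.8 FPKM in control samples, 53.6 with miR-144 and 50.9 with miR-451a. It was called only with miR-451a (log2 fold change -0.25, limma adjusted p = 0.0147, against -0.18 and 0.0707 with miR-144), and the difference between the miRNA groups was not called. The miR-451a call was lost after rescaling to TPM (-0.17) and without control samples 2 and 4 (-0.18). Ndufa6, an accessory subunit of the LYR protein family, was higher, with 12.7 ± 1.16 FPKM in control samples, against 15.8 ± 1.22 with miR-144 and 15.9 ± 2.66 with miR-451a (mean and SD, n = 5). Its log2 fold changes of 0.30 and 0.29 (limma adjusted p = 0.0132 and 0.0154) lost their call under median centring, at 0.16 and 0.14, and under quantile normalization, at 0.22 and 0.20.

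Complex II, or succinate dehydrogenase, also works in the citric acid cycle, and all 4 of its subunits were lower in every miRNA sample than in any control sample. Sdha, the flavoprotein, fell by 0.18 and 0.19 on the log2 scale and Sdhb, the iron-sulfur subunit, by 0.21 and 0.23. Of the membrane anchors, Sdhc fell by 0.24 and 0.30 and Sdhd by 0.33 and 0.36. Sdhd had 86.2, 90.8, 84.6, 84.1 and 84.1 FPKM in control samples, 71.4, 70.7, 63.1, 68.0 and 68.4 with miR-144, and 67.2, 69.2, 68.0, 67.6 and 62.8 with miR-451a. The limma adjusted p of the 4 genes ranged from 9.69e-07 to 0.000158 with miR-144 and from 7.70e-08 to 8.02e-05 with miR-451a.

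In complex III, 7 of 8 nuclear subunits were lower in each comparison (20.1% and 20.3% of all genes). Uqcr10 (ENSMUSG00000059534, chromosome 11, 4701973 to 4704342, minus strand, GRCm38), a small membrane subunit, had 98.6, 97.1, 101, 98.3 and 100 FPKM in control samples. It had 77, 62.4, 58.7, 63.8 and 68.2 FPKM with miR-144 and 51.9, 61.7, 60.7, 72.3 and 66.6 with miR-451a. The control samples lay close together and above all others, with log2 fold changes of -0.58 and -0.66 (SE 0.08 for both, limma adjusted p = 9.79e-06 and 2.51e-06). Uqcrh, the hinge protein that contacts cytochrome c1, changed less, at -0.18 (limma adjusted p = 0.0714) and -0.24 (adjusted p = 0.0182), and the second call was lost without control sample 2 (-0.20), miR-451a sample 1 (-0.19) or both control samples 2 and 4 (-0.14), and after rescaling to TPM with or without mtDNA genes (-0.16 and -0.17). The ratio of Uqcr10 to Uqcrc2, a core subunit, was 3.23 to 3.65 in control samples, 2.17 to 2.92 with miR-144 and 1.70 to 2.60 with miR-451a, a pair chosen after the values were seen.

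In complex IV, 8 of 13 nuclear subunits tested were lower with miR-144 (20.1% of all genes). With miR-451a 10 were lower (20.3%) and 1 higher (48.1%). Cox7b (ENSMUSG00000031231, chromosome X, 106015700 to 106022450, plus strand, GRCm38), a small subunit needed for assembly, had 53.8, 63.1, 58.8, 72.0 and 57.2 FPKM in control samples. It had 38.5, 32.6, 34.5, 33.5 and 34.3 FPKM with miR-144 and 30.6, 32.1, 33.4, 36.4 and 32.7 with miR-451a. On the log2 scale the falls were -0.79 and -0.86 (SE 0.07 for both, limma adjusted p = 9.77e-08 and 3.56e-08), without overlap of the groups.

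Several complex IV subunits exist as isoforms for particular tissues or conditions, and the ubiquitous ones made up nearly all of the signal. The muscle forms Cox6a2 and Cox8b reached at most 0.903 and 0.0493 FPKM, whereas Cox6a1 averaged 149 FPKM in control samples, 108 with miR-144 and 105 with miR-451a (log2 fold changes -0.47 and -0.51, limma adjusted p = 4.67e-05 and 1.62e-05). Cox4i1, the ubiquitous form of subunit IV, was not called, with 122 ± 12.1, 109 ± 11.5 and 117 ± 29.8 FPKM (SD, n = 5) in the 3 groups. Cox4i2, its hypoxia-responsive partner, stayed under 1 FPKM in every sample, at 0 to 0.263 in control samples, 0.224 to 0.368 with miR-144 and 0.318 to 0.832 with miR-451a, and in the fit without the filter its log2 fold changes were 0.27 and 0.52 (limma adjusted p = 0.0174 and 0.000141). Cox6b2, the testis form of Cox6b1, reached at most 1.44 FPKM and in the same fit was higher with miR-451a (0.44, limma adjusted p = 0.00214), while Cox6b1 itself fell by 0.40 and 0.52 on the log2 scale.

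Ndufa4 and its inducible relative Ndufa4l2, which are named for complex I but belong with complex IV, differed in direction, and Ndufa4l2 was called only with miR-451a. Ndufa4 averaged 30.6 FPKM in control samples, 25.3 with miR-144 and 22.7 with miR-451a, or log2 fold changes of -0.26 and -0.42 (limma adjusted p = 0.000212 and 2.14e-06). Ndufa4l2 had 0.989, 1.28, 1.83, 1.51 and 1.38 FPKM in control samples, 2.09, 2.26, 1.74, 1.85 and 1.11 with miR-144, and 3.84, 3.45, 2.77, 3.37 and 2.33 with miR-451a. All miR-451a samples lay above all others, and the log2 fold change was 0.79 with miR-451a (SE 0.13, limma adjusted p = 5.78e-05) and 0.22 with miR-144 (adjusted p = 0.138, or called at 0.32 without miR-144 sample 5). Of the 5 stellate cell and fibroblast markers tested, 5 were higher with miR-451a and 3 with miR-144 (48.1% and 47.1% of all genes), with the summed levels given above, and their part in the level of Ndufa4l2 was not tested.

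The Cox7a genes also differed among themselves. Cox7a2, the common form, had 39.7 ± 8.68, 25.9 ± 3.26 and 27.9 ± 4.84 FPKM (SD, n = 5), and fell by 0.58 and 0.48 on the log2 scale (limma adjusted p = 0.00154 and 0.00537). Cox7a1, the muscle and heart form, was at 0.909 to 2.67 FPKM in control samples and 1.05 to 1.70 with miR-451a. Its call with miR-451a (-0.35, limma adjusted p = 0.0412) was lost when any of 7 single samples was left out, at -0.37 to -0.27, after rescaling to TPM, without the filter on low values and with a pseudocount of 0.1 FPKM. Cox7a2l, which is listed here with the assembly and other factors, was higher. It had 109, 117, 108, 115 and 115 FPKM in control samples, 154, 149, 139, 150 and 157 with miR-144, and 145, 156, 145, 150 and 148 with miR-451a. The rises were 0.41 and 0.40 on the log2 scale (SE 0.04 for both, limma adjusted p = 1.06e-07 and 1.35e-07), and it kept this call under each scaling tried. The ratio of Cox7a2l to Cox7a2 thereby went from 2.10 to 3.22 in control samples to 4.89 to 6.31 with miR-144 and 4.4 to 6.79 with miR-451a, a pair chosen after the values were seen.

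Cox8a, the ubiquitous form of subunit VIII, had 1 low sample in each group. Its FPKM was 74.2 in control sample 1 and 153 to 161 in the 4 others, 57.7 in miR-144 sample 2 and 106 to 126 in the others, and 57.3 in miR-451a sample 1 and 108 to 126 in the others. The log2 fold changes of -0.42 and -0.44 were not called (limma adjusted p = 0.181 and 0.154), but without control sample 1 they were -0.63 and -0.66 and were called.

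**Figure D3:**
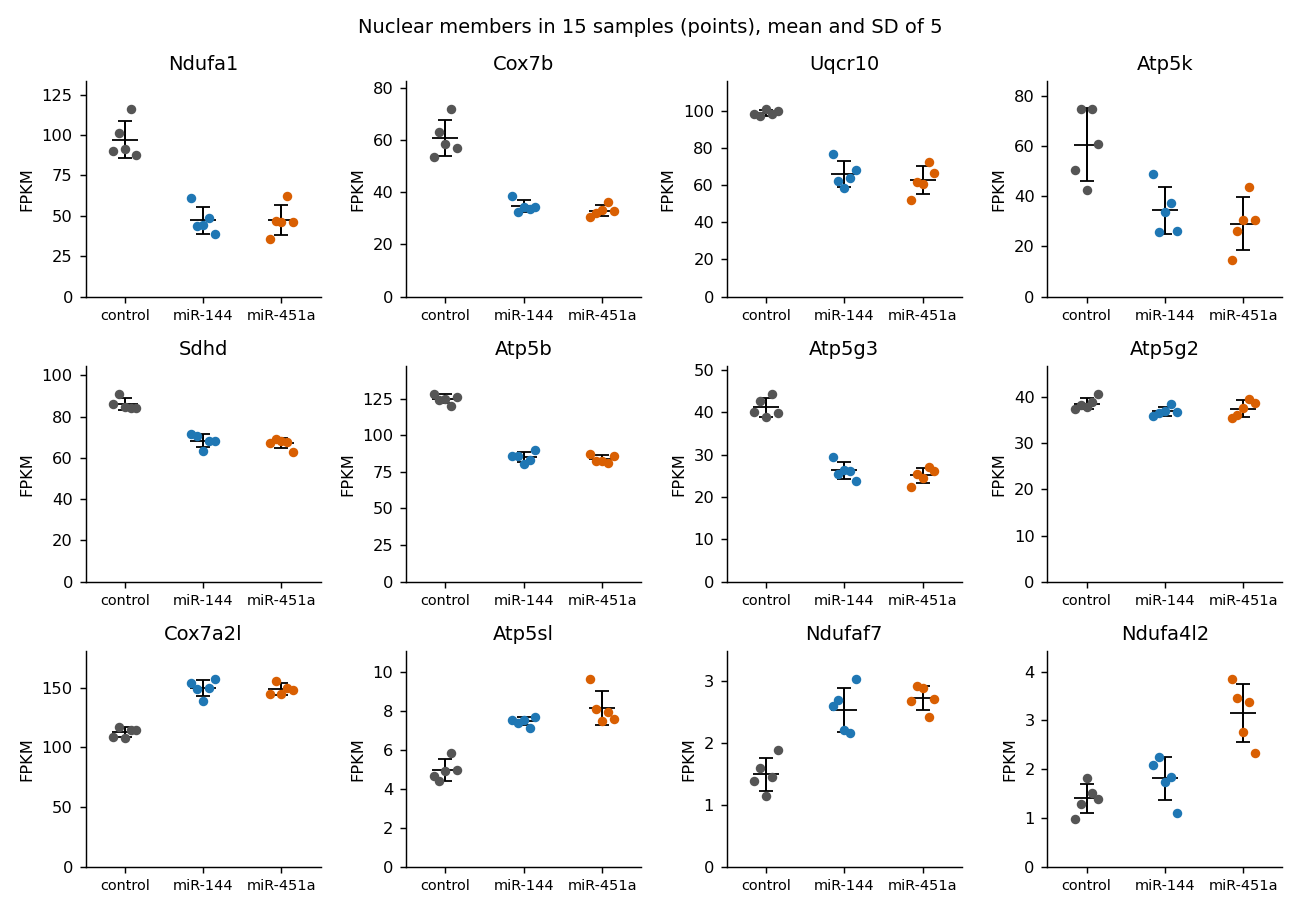
FPKM (vertical axis, from 0) of 12 nuclear members in each sample, drawn in order of sample number within a group, with bars for the mean and SD of 5 samples. Ndufa1, Cox7b, Uqcr10, Sdhd, Atp5b and Atp5g3 separate control from both miRNA groups downward, Cox7a2l, Atp5sl and Ndufaf7 separate upward, and Ndufa4l2 is highest with miR-451a.

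In ATP synthase, 12 of 15 nuclear subunits were lower with miR-144 (20.1% of all genes), 11 were lower with miR-451a (20.3%), and none was higher. The alpha and beta subunits form the catalytic core, and both fell. Atp5b, the beta subunit, had 128, 124, 125, 120 and 126 FPKM in control samples, 85.9, 85.9, 80.4, 83.4 and 89.8 with miR-144, and 87.3, 82.7, 82.3, 80.8 and 85.9 with miR-451a. Its log2 fold changes were -0.54 and -0.57 (SE 0.03 for both, limma adjusted p = 1.06e-09 and 6.48e-10). Atp5a1, the alpha subunit, fell by 0.38 and 0.34 on the log2 scale (limma adjusted p = 2.81e-08 and 7.11e-08).

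Atp5g1, Atp5g2 and Atp5g3 encode the same mature c subunit of the membrane ring, with different import sequences, and only Atp5g1 and Atp5g3 were called lower. Atp5g3 (ENSMUSG00000018770, chromosome 2, 73908447 to 73911326, minus strand, GRCm38) had 40.2, 42.6, 38.9, 44.3 and 39.9 FPKM in control samples, 29.5, 25.4, 26.4, 26.1 and 23.9 with miR-144, and 22.3, 25.5, 24.4, 27.2 and 26.1 with miR-451a. Its log2 fold changes were -0.63 and -0.69 (SE 0.06 for both, limma adjusted p = 1.69e-07 and 5.29e-08). Atp5g2 had 38.6 ± 1.24, 36.9 ± 1.05 and 37.5 ± 1.76 FPKM (SD, n = 5), with -0.06 and -0.04 (limma adjusted p = 0.137 and 0.322), and became called lower under median centring, at -0.19 and -0.18. The ratio of Atp5g3 to Atp5g2, chosen after the values were seen, was 0.984 to 1.14 in control samples, 0.649 to 0.825 with miR-144 and 0.629 to 0.705 with miR-451a. Atp5g1 was scarcer, at 7.51, 5.36 and 4.94 FPKM on average, and fell by 0.42 and 0.52 on the log2 scale.

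Atp5k, the e subunit that helps ATP synthase form dimers, had the largest fall with miR-451a and a wide spread. Its FPKM was 50.3, 74.6, 42.4, 74.5 and 60.9 in control samples, 48.8, 25.8, 33.6, 37.1 and 26.1 with miR-144, and 14.5, 26.0, 30.3, 43.7 and 30.5 with miR-451a. The groups overlapped, and the log2 fold changes were -0.81 and -1.08 (SE 0.25 for both, limma adjusted p = 0.0105 and 0.00141). Without control samples 2 and 4 the first was -0.59 and no longer called.

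Assembly and other factors were called in both directions. Of 23 tested, 5 were higher and 4 lower with miR-144, and 6 were higher and 3 lower with miR-451a, where 47.1% and 48.1% of all genes were higher and 20.1% and 20.3% lower. The balance depended on the scaling. Median centring gave 3 higher and 7 lower with miR-144 and 3 higher and 10 lower with miR-451a, where 30.7% and 31.8% of all genes were lower. Quantile normalization gave 3 higher and 10 lower in each (29.3% and 30% of all genes lower), and rescaling to TPM gave 6 and 7 higher and 0 lower (16.4% and 16.3%). Atp5sl, known as Dmac2 and a factor for complex I assembly despite its symbol, had 4.96 ± 0.548 FPKM in control samples, against 7.46 ± 0.208 with miR-144 and 8.14 ± 0.858 with miR-451a (mean and SD, n = 5). It rose by 0.51 and 0.62 on the log2 scale (SE 0.07 for both, limma adjusted p = 6.08e-06 and 7.19e-07). Ndufaf7, a methyltransferase that modifies a complex I subunit early in assembly, had 1.39, 1.59, 1.14, 1.44 and 1.88 FPKM in control samples, 2.59, 2.69, 2.20, 2.16 and 3.02 with miR-144, and 2.67, 2.92, 2.88, 2.42 and 2.70 with miR-451a. Its log2 fold changes were 0.51 and 0.58 (SE 0.08 for both, limma adjusted p = 4.93e-05 and 1.11e-05), and both genes kept their call under each scaling tried. Ndufaf8 (0.27 and 0.24) and the heme A synthase Cox15 (0.14 and 0.20) were called higher as well but lost the call under median centring and quantile normalization, and Cox15 was -0.01 with miR-144 under the latter. Reads shared with other genes make some of these values uncertain: 5 of the 106 nuclear members (Cox11, Cox16, Cox20, Ndufaf2 and Sdhaf1, all assembly factors) share over 50% of their 50-base stretches with other annotated genes, and of these Sdhaf1 alone was called (-0.18 and -0.16, limma adjusted p = 0.0334 and 0.0484). Among the other nuclear members described above with a share over 10%, it was 24.8% for Uqcrc2 (with Pdzd9), 17.7% for Cox7a2l (with Gm6969), 14.8% for Atp5g2 (mainly with Gm10175, Gm10231 and Mir688), 14.7% for Cox4i1 (with Emc8) and 11.6% for Atp5g1 (mainly with Gm10039, Wdr33 and Afap1).

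No member was called between the miRNA groups (limma, 0 of 112, where 0% of all genes were called), and 5 had an unadjusted p under 0.05. Those 5 were Ndufa4l2, Ndufa4, Sdhc, Sdhaf4 and Cox15. Ndufa4l2 differed by 0.57 (SE 0.13, limma adjusted p = 0.736) and Ndufa4 by -0.15 (SE 0.05, limma adjusted p = 0.827), as miR-451a minus miR-144. The groups did not overlap for 3 of the 112 members tested, with Ndufa4l2 and Cox15 above in miR-451a and Ndufa4 below, against 0.552% and 0.298% of all genes and 0.849% in either direction. Among all genes 596, or 5.22%, had an unadjusted p under 0.05. Cox6b2, under the filter, did not overlap either, at 0.454 to 0.657 FPKM with miR-144 and 0.728 to 1.44 with miR-451a (0.30, limma adjusted p = 0.831 in the fit without the filter).

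Samples also differed within groups. Among the 76 nuclear subunits tested, miR-144 sample 1 was the highest of its group for 51, and miR-451a sample 1 was the lowest of its group for 39. Among the 13 mtDNA-encoded subunits, control sample 4 was the highest for 12 and miR-451a sample 4 for all 13, whereas miR-451a sample 5 was the lowest for 12. The sample that was highest for nuclear subunits with miR-144 was thus not the one that was highest for mtDNA-encoded subunits, which was sample 3 for 11 of 13. The mean log2(FPKM + 1) of nuclear subunits was 4.75 to 4.89 in control samples, 4.49 to 4.68 with miR-144 and 4.41 to 4.62 with miR-451a. For mtDNA-encoded subunits other than mt-Atp6, the mean level minus that of nuclear subunits was 5.44 to 5.59 on the log2 scale in control samples, 5.29 to 5.53 with miR-144 and 5.22 to 5.45 with miR-451a. With mt-Atp6 included it was 5.38 to 5.59, 5.36 to 5.59 and 5.29 to 5.51, and with either set the groups overlapped.

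Fold changes differed between classes of transcript length. The 32 nuclear members with a mean transcript length under 600 bases had a median log2 fold change of -0.36 in both comparisons, and 62.5% and 71.9% of them were lower, against -0.13 and -0.12 and 47.5% and 40.0% of the 40 members of 600 to 1000 bases. The 18 members of 1000 to 1500 bases had -0.16 in both, with 50% lower, the 6 of 1500 to 2500 bases had -0.28 and -0.18, with 66.7% and 83.3% lower, and the 3 longer ones had -0.19 and -0.23, with 66.7% lower in both. All genes under 600 bases had medians of 0.03 and -0.01, with 18.9% and 20.2% lower. Across the 99 nuclear members the Pearson correlation of log2 fold change with log10 length was 0.19 and 0.24, against 0.08 and 0.10 across 11414 genes tested, as a description across genes, which share the same libraries. With the length trend of all genes removed, an alternative added after the values were seen, 81 and 79 members were lower, as were 30.9% and 31.9% of all genes.

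**Figure D4:**
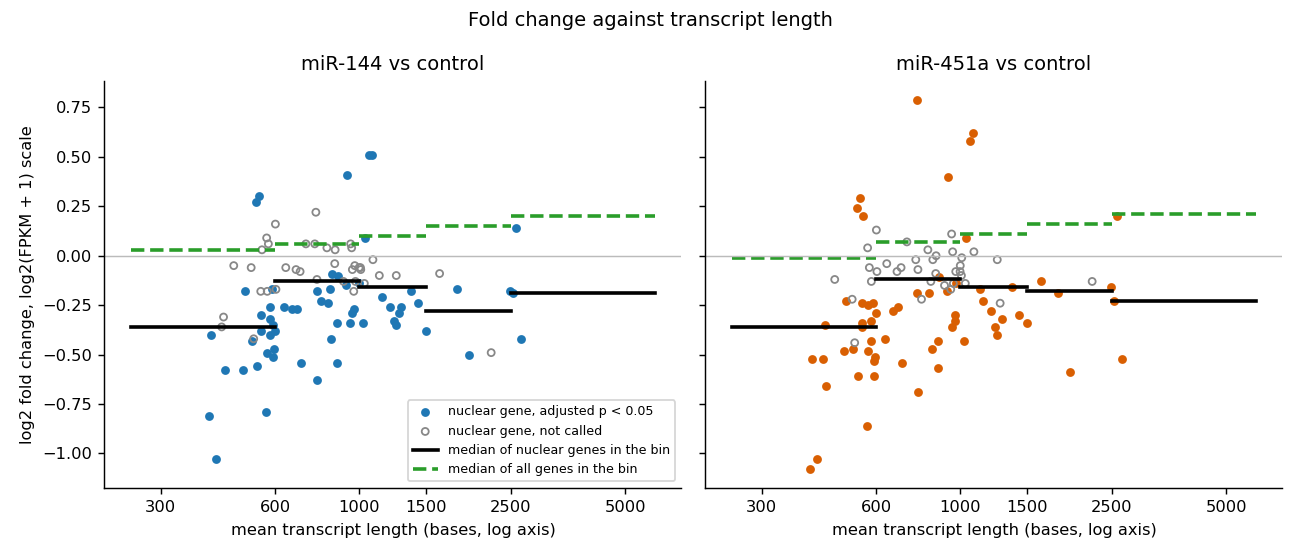
Log2 fold change on the log2(FPKM + 1) scale (vertical axis) of the 99 nuclear members tested against mean transcript length in bases (horizontal axis, log scale), for miR-144 (left) and miR-451a (right) against control. Black lines are member medians and dashed lines the medians of all genes in bins of length, and in each bin the members lie below all genes, at -0.36 against 0.03 and -0.01 under 600 bases.

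Other genes of the pathway were counted by list, where 47.1% and 48.1% of all genes were higher and 20.1% and 20.3% lower, or 30.7% and 31.8% lower under median centring. Cycs, the cytochrome c that links complexes III and IV, had 17.3, 18.7, 16.7, 17.8 and 17.4 FPKM in control samples, 10.1, 9.12, 8.50, 8.64 and 9.18 with miR-144, and 8.54, 7.81, 7.91, 8.80 and 9.37 with miR-451a (log2 fold changes -0.88 and -0.97, SE 0.05 for both, limma adjusted p = 9.80e-10 and 2.84e-10). Cyc1, the cytochrome c1 of complex III, fell by 0.36 and 0.37. Of 7 genes for energy exchange and uncoupling, 6 were tested, of which 3 were lower in each comparison and 1 and 2 were higher, or 3 lower and 3 higher in each under quantile normalization and after rescaling to TPM. The lower ones included the ADP/ATP carrier Slc25a5 (-0.69 and -0.70). Slc25a4, the carrier of heart and muscle, was higher (0.28 and 0.31). Of 21 genes for mitochondrial import, chaperones, cristae and fusion, 10 were lower and 2 higher with miR-144, and 12 were lower and 3 higher with miR-451a, with 17 lower and 0 higher in each under median centring. Of 7 genes tested that feed ubiquinone by other routes, 3 were lower, the electron transfer flavoproteins Etfa and Etfb and their dehydrogenase Etfdh, and 3 were higher in each comparison, against 4 lower and 1 higher under median centring. Coenzyme Q synthesis gave 2 higher and 4 lower of 11 with miR-144, and 2 higher and 5 lower with miR-451a, against 2 higher and 7 and 6 lower under quantile normalization and 3 higher and 2 lower in each after rescaling to TPM. Of the 3 ATP synthase subunits or regulators outside the rule that were tested, 2 were lower in each comparison.

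Assembly factors outside the rule were also called in both directions, with a balance that moved with the scaling. Surf1, a complex IV factor mutated in Leigh syndrome, had log2 fold changes of 0.44 and 0.46 (limma adjusted p = 2.18e-07 and 1.18e-07) and Atpaf1, a chaperone of the ATP synthase beta subunit, of 0.37 and 0.42 (adjusted p = 4.34e-06 and 1.17e-06), both called under each scaling tried. In all, 1 of 14 complex IV factors was higher and 3 lower with miR-144 and 2 were higher and 3 lower with miR-451a. Quantile normalization gave 1 higher and 6 lower, and 2 higher and 5 lower, and rescaling to TPM gave 3 higher and 1 lower, and 5 higher and 2 lower. For complex I factors the counts were 1 higher and 2 lower of 8, and 2 higher and 1 lower, but 0 higher and 5 lower in each comparison under median centring. In complex III, 1 of 5 factors was higher in each comparison, Ttc19 (0.24 and 0.30), whose call with miR-144 was lost under median centring (0.11) and quantile normalization (0.08). After rescaling to TPM 3 of the 5 were higher in each. In ATP synthase 1 of 3 was higher, Atpaf1, or 2 in each comparison after rescaling to TPM. With miR-451a, 1 was lower under median centring and quantile normalization.

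Of 10 genes for mtDNA replication, 5 were higher and 1 lower in each comparison, near the 47.1% and 48.1% of all genes that were higher, and the 5 kept their call under each scaling tried. The lower count was 3 and 2 under median centring, 3 and 4 under quantile normalization and 0 after rescaling to TPM. Polg, the catalytic subunit of the mtDNA polymerase, had 1.82 ± 0.186 FPKM in control samples, against 5.51 ± 0.203 with miR-144 and 5.57 ± 0.327 with miR-451a (mean and SD, n = 5). It rose by 1.21 and 1.22 on the log2 scale (SE 0.05 for both, limma adjusted p = 9.42e-12 and 7.82e-12). Its partner Polg2 had 0.70 and 0.66. Genes for mtDNA transcription and RNA handling were mostly not called, with 4 higher and 2 lower of 20 with miR-144 and 4 higher and 3 lower with miR-451a, and 0 higher and 7 lower in each under median centring, against 6 and 9 higher and 1 lower after rescaling to TPM. Tfam, which packages and transcribes mtDNA, was among the higher (0.19 and 0.22). It was no longer called higher under median centring or quantile normalization, where none of the list was. Hsd17b10, a subunit of mitochondrial RNase P that cuts the precursors, had the largest fall of the list (-0.82 and -0.93, limma adjusted p = 3.18e-09 and 7.25e-10). The mitochondrial rRNAs differed, as mt-Rnr1 had log2 fold changes of 0.52 and 0.61 (limma adjusted p = 6.32e-06 and 9.78e-07) and mt-Rnr2 had -0.18 and -0.13 (adjusted p = 0.00425 and 0.0230), the latter 0.01 and 0.08 under quantile normalization.

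Of 14 nuclear regulators of respiratory genes, 12 were tested, and 7 were higher and 3 lower in each comparison, or 3 higher and 4 lower under median centring. Of all genes, 47.1% and 48.1% were higher and 20.1% and 20.3% lower, and 30.7% and 31.8% were lower under median centring. Ppargc1b, a coactivator of respiratory genes, had 4.16, 4.23, 4.85, 4.48 and 4.05 FPKM in control samples, 1.44, 1.33, 1.23, 1.21 and 1.37 with miR-144, and 1.62, 1.49, 1.39, 1.49 and 1.81 with miR-451a. The falls were -1.21 and -1.07 on the log2 scale (SE 0.05 for both, limma adjusted p = 2.45e-11 and 1.06e-10), and the groups did not overlap. The related Ppargc1a was near 0, with means of 0.00762, 0.00339 and 0.00100 FPKM. Esrra, the nuclear receptor these coactivators bind, was not called (-0.05 and -0.03), Yy1 was higher (0.32 and 0.33) under each scaling, and Nrf1 and Gabpa were higher (0.20 and 0.15, and 0.24 and 0.27) but not under median centring.

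The promoters of the nuclear members were searched for the binding motifs of these regulators, on both strands of 250 bases before to 50 after the start site in RefSeq (GRCm38.p6), where 88 of the 106 nuclear members matched. The 5 motifs were chosen after the values were seen. The NRF1 motif, GCGC on either side of any 2 bases, was in 26.1% of these members, against 16.2% of the 8097 tested genes with a promoter and 7.0% of all 27025 genes. Its stricter form with AT between the GCGC blocks, which the first motif contains, was in 7.95% against 2.58%. CCGGAAG, bound by GABP, was in 29.5% against 22.3%, the YY1 motif AAGATGGCG in 11.4% against 4.15%, and the ERR motif TCAAGGTCA in 2.27% against 0.321%. The NRF1 motif was in 26.8% of the 41 members that were lower in both comparisons and in 25.6% of the 43 tested members that were not. The stricter form was in 7.32% and 9.3%, the GABP motif in 36.6% and 23.3%, the YY1 motif in 12.2% and 11.6% and the ERR motif in 4.88% and 0%. Stretches of 30 bases are shown for members described above, with the motif in capitals, 5′ to 3′ on the strand of the gene: for NRF1 the c subunit genes Atp5g3 (chr2:73911295-73911324, minus) and Atp5g2 (chr15:102671070-102671099, minus), of which 1 fell, Atp5k (chr5:108434430-108434459, minus), Sdhd (chr9:50603909-50603938, minus) and the higher Ndufa6 (chr15:82354249-82354278, minus), and for YY1 the higher Atp5sl (chr7:25619430-25619459, plus).
Atp5g3: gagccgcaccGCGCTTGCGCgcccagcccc
Atp5g2: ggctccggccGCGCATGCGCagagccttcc
Atp5k: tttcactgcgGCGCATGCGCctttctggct
Sdhd: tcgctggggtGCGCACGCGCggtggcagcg
Ndufa6: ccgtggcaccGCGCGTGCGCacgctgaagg
Atp5sl: gttacctggcAAGATGGCGgcgcccagagc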

How the data were processed

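RNA-seq values of 15 TAM samples were analysed, 5 per group, with groups and numbers taken from the sample labels. The authors deposited FPKM per gene and sample. The submitters' processing notes name FastQC 0.11.2, STAR and StringTie, and versions of the last 2, the genome build and the strand setting are not given in the sources used here. FPKM is a share of a library, so it shows unequal change and not RNA per cell. Low values fell on steps of 1 fragment for only 38.6% to 51.8% of genes (10% by chance), so counts were not recovered. With fragments estimated roughly from the approximate depth, the lowest mean chi-square per gene over the 30 within-group pairs was 4.68. This could not be set against sampling noise without counts, and each sample was counted once.

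Limma 3.58.1 in R 4.3.3 was fitted to log2(FPKM + 1) with the trend option and all 3 groups together. Genes averaging under 1 FPKM over the 15 samples were left out, and p-values of the remaining 11419 were adjusted by Benjamini-Hochberg. Members under that mean were taken from a fit without the filter. Simulated data made for miR-144 against control held 11419 genes, of which 11219 were left unchanged, and 9 of these were called. Of 50 genes changed by 0.5, 44 were called, against 41 of 50 changed by -0.5 and 32 of 50 changed by 0.25. In the measured data 67.2% of genes were called with miR-144. The rate of calls with so large a share of genes changed was not tested.

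Members and lists were chosen with earlier results of these data known. Named genes were all mtDNA-encoded and Sdh subunits, the 2 most abundant nuclear subunits per complex, the 6 largest called rises and falls per comparison, and isoform sets. Uqcrc2, Tfam, Ppargc1a, Esrra, Nrf1, Gabpa, the nuclear copies and the genes with shared reads were named after their values were seen, as were the grouping by complex and the length bins. Of the marker lists not described in the report, the summed FPKM in control, miR-144 and miR-451a samples was 0.138 to 0.379, 1.11 to 1.45 and 1.18 to 1.75 for 5 B cell markers, 0.192 to 0.416, 0.0477 to 0.168 and 0.0323 to 0.137 for 4 NK cell markers, 0.30 to 0.42, 0.632 to 0.784 and 0.548 to 0.817 for 6 dendritic cell markers, 3.70 to 4.30, 4.68 to 5.08 and 4.69 to 5.94 for 6 endothelial markers, and 73.3 to 83.8, 51.4 to 55.7 and 50.2 to 53.8 for 7 proliferation genes. In these 5 lists control samples did not overlap the others. The sums of 4 hepatoma and 6 erythroid markers overlapped and were at most 1.79 and 0.141 FPKM. The part of these lists in the results was not tested. Lengths, overlaps and shared 50-base stretches came from GENCODE M21 (GRCm38), which may not be the authors' build. Scripts used Python 3.11.15, numpy 2.4.6, pandas 2.3.3 and matplotlib 3.10.9. Results of some genes are not reported here.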

Additional observations from a re-analysis of the deposited data

Results flagged for a closer look

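Among the named members, 136 groups of 5 samples were tested for a single sample far from the others, where about 6.80 would be found by chance (1 in 20), and 13 were. Of these, 5 were in miR-144 sample 1, where Cox4i1 was at 128 FPKM, Cox6b1 at 146, Cox7a2 at 31.5, Ndufa2 at 64.3 and Cox8b at 0.0493, each the highest of its group. In the miR-451a group, Atp5sl in sample 1 was at 9.61 FPKM and Cox8a in sample 1 at 57.3, and Cox6b2 and Ndufaf8 in sample 3 were at 1.44 and 6.95. In the control group, Cox8a in sample 1 was at 74.2 FPKM, Cox6a1 in sample 2 at 135, Cox6b2 in sample 3 at 0.690 and Cox7a2 in sample 4 at 54.7. The low mt-Atp6 of control samples 2 and 4 was not found this way, because 2 samples were low together.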

How the results depend on the processing

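Counts of called members stayed within 1.5 times of 73 and 76 under every alternative run but a minimum absolute log2 fold change of 0.5, which left 13 and 20. With a single sample left out the counts were 63 to 74 with miR-144, 70 to 75 with miR-451a and 0 between the miRNA groups, and the medians were -0.29 to -0.24 for nuclear subunits in each comparison and -0.43 to -0.36 and -0.45 to -0.39 for mtDNA-encoded subunits. Median centring moved the medians to -0.40 and -0.42 for nuclear and -0.53 and -0.56 for mtDNA-encoded subunits, and quantile normalization moved the latter to -0.09 and -0.14, where mt-Co2, mt-Co3, mt-Cytb and mt-Nd1 lost their calls. These scalings moved the share of higher genes among all called genes from 70.1% and 70.3% to 50% and 49.6% (median centring) and 52.3% (quantile normalization).

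Signs turned for mt-Atp6 without control samples 2 and 4 (-0.18 in both), for mt-Co1 under quantile normalization (0.30 and 0.32), and for Cox15 with miR-144 under quantile normalization (-0.01) and with the length trend removed (-0.05, and 0.00 with miR-451a). They also turned for Atp5g2, uncalled as reported, after rescaling to TPM (0.01 and 0.04, and 0.03 with miR-451a without mtDNA genes) and for Cox4i1 with miR-451a under quantile normalization (0.00) and without control samples 2 and 4 (0.02). The cause was not tested.

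Nothing in the labels pairs equal sample numbers across groups. Their deviations from the group means correlated by -0.0122 on average for control and miR-144 (range -0.127 to 0.108). The averages were 0.140 for control and miR-451a (0.066 to 0.264) and 0.101 for miR-144 and miR-451a (-0.15 to 0.241). Unequal numbers gave averages of 0.0031, -0.0347 and -0.0251, and 8 of 15 samples correlated best with their own number. Whether equal numbers share a run is not given in the labels. With the number as a replicate block, 67 and 74 members were called against control and 0 between the miRNA groups. Depth limits low genes such as Cox4i2, and the FPKM carry no counts from which an interval could be made.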
